A study of Mus musculus with 6 samples.

Results

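The genes described are 10 mouse Sox transcription factor genes of neural lineages, chosen by name and matched through their Ensembl identifiers: Sox1, Sox2 and Sox3 of the SoxB1 group, Sox4 and Sox11 of SoxC, Sox5 and Sox6 of SoxD, and Sox8, Sox9 and Sox10 of SoxE. All 10 were present among the 29267 genes of each table and all 10 had enough counts to be tested. RNA sequencing profiled cultured mouse neural stem cells labelled with the strain OG2, at passage 8, kept as neural stem cells (NSC) or put through differentiation and collected at D2, as the titles write it. Each state had 1 library with naloxone, an opioid receptor antagonist, 1 with DAMGO, a synthetic peptide that activates mu opioid receptors, and 1 control without ligand. The title of the series names the effect of naloxone on proliferation and differentiation as its question. The 6 groups are therefore D2 with naloxone, D2 with DAMGO, D2 control, NSC with naloxone, NSC with DAMGO and NSC control, with 1 library each. Replicates were lacking in every group, and separate cultures are not mentioned, so the p-values reflect only the variation among these 6 libraries, which may be technical. SDs below are over the 3 ligand conditions of a state.

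Sox proteins bind DNA through an HMG box, related to that of the sex-determining factor Sry, and bend it. SoxB1 factors are known for holding neural cells in a progenitor state, SoxC factors for driving the expression of neuronal genes in young neurons, and SoxE factors for specifying glia, with Sox10 required in the oligodendrocyte lineage. SoxD proteins carry no activation domain of their own and modulate the action of SoxE proteins. Members of a group share much of their protein sequence and often act redundantly.

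The libraries held 8417074 to 13561237 expected counts, with 17124 to 17850 genes detected per library. Each member had between 414 and 17838 expected counts in every library, apart from Sox10, which had 4 to 8 counts in NSC libraries. The labelled cell type was checked against a list of 6 neural stem cell markers, among them Nes, Vim and Fabp7, which summed to 4840 to 5229 CPM (counts scaled to the library size) in D2 and 6501 to 6600 CPM in NSC. Nes, Vim and Fabp7 were expressed in both states. In these bulk libraries, fewer cells of a type and less RNA per cell cannot be told apart.

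Of the 10 Sox genes, 8 rose in D2 and 2 fell, against 40.0% of all 13216 tested genes that rose and 39.8% that fell (edgeR quasi-likelihood test, Benjamini-Hochberg adjusted p under 0.05). The median log2 fold change was 1.18 over the 10 genes and 0.00 over all tested genes. In TMM-scaled CPM, where TMM is edgeR's library scaling, the 3 D2 libraries lay above the 3 NSC libraries without overlap for the same 8 genes, and below them for Sox11 (41.3% and 40.9% of all tested genes). The summed level of the 10 genes, in TPM (a level per transcript length, scaled to the library), was 2553 ± 140 TPM in D2 and 1074 ± 19.6 TPM in NSC (SD, n = 3 libraries each). The fold changes and tests below rest on counts, and TPM is given so that levels can be compared between genes.

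**Figure D1:**
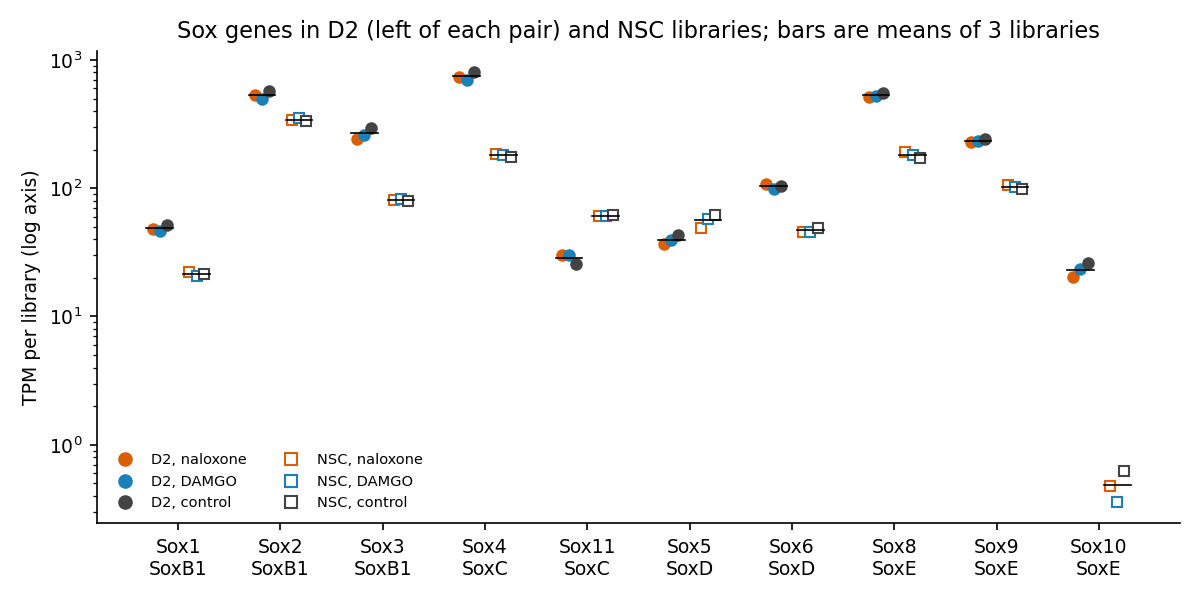
TPM of each Sox gene in each of the 6 libraries on a log axis, with D2 libraries (filled circles) left of NSC libraries (open squares), colours for the ligand and bars for the mean of 3 libraries. Sox11 and Sox5 are lower in D2, the other 8 genes are higher, and Sox10 lies below 1 TPM in all NSC libraries.

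The promoters of 4 members are shown here to set side by side members that rose (Sox2 and Sox8) and members that fell (Sox11 and Sox5). They are the 250 bases before the gene start in RefSeq, build GRCm38.p6, which is the build called mm10, written 5′ to 3′ on the strand of the gene. Capitals mark the hexamers ACAAAG and ACAATG, close to the core letters that Sox proteins bind, or their reverse complements CTTTGT and CATTGT. The hexamers do not overlap each other in these windows. The RefSeq start used for Sox5 lies inside the annotated gene and is not its most upstream start.
Sox2, chr3:34649745-34649994, plus strand: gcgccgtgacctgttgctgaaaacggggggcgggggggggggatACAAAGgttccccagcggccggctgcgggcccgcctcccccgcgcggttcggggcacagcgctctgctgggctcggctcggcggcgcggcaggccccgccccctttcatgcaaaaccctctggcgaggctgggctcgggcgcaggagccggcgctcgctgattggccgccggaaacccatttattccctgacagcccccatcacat
Sox8, chr17:25570687-25570936, minus strand: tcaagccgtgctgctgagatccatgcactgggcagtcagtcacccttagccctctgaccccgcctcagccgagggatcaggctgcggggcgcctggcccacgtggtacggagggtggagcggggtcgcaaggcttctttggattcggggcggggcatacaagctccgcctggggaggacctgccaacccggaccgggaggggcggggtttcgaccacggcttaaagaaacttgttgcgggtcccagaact
Sox11, chr12:27342719-27342968, minus strand: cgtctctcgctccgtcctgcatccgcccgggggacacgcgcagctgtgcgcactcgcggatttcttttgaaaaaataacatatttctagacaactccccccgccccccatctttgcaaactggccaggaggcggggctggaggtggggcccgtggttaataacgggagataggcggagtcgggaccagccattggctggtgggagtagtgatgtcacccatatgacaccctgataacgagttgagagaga
Sox5, chr6:143947107-143947356, minus strand: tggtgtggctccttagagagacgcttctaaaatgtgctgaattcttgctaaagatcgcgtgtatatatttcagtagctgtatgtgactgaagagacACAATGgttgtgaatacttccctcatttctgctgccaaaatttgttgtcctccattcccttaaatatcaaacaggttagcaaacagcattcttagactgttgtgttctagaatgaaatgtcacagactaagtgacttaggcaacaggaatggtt
Of the 10 members, 7 matched the RefSeq promoter table (Sox1, Sox2, Sox4, Sox5, Sox6, Sox8 and Sox11). Either hexamer, on either strand, occurred upstream of 25.2% of 32851 gene starts. The Sox2 window held 1 ACAAAG, 206 bases before the start, and the Sox5 window held 1 ACAATG, 154 bases before the start. The Sox8 and Sox11 windows held neither, nor did those of Sox1 and Sox4, while Sox6, which has 6 listed starts, had a hexamer at several of them. Base composition differed between the printed windows, with 72% G and C for Sox2, 65.6% for Sox8, 58.0% for Sox11 and 39.6% for Sox5, against a median of 52.4% over all windows. These are letter matches and not binding sites.

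All 3 SoxB1 genes rose in D2. Sox2 (chromosome 3, 34650405 to 34652461, mm10, plus strand, a single exon), the factor shared by pluripotent and neural stem cells, was the most abundant of the 10 genes in NSC. It had 529, 497 and 574 TPM in D2 with naloxone, DAMGO and no ligand, against 341, 355 and 333 TPM in the NSC libraries in the same order. The lowest D2 library was above the highest NSC library. The edgeR fit put its log2 fold change at 0.63 (SE 0.06, adjusted p = 5.49e-07), the smallest rise among the 8 genes that rose, and larger than that of 74.6% of all tested genes. Sox2 ranked 214 to 256 among all genes by TPM in D2 libraries and 419 to 459 in NSC libraries.

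Sox3 (chromosome X, 60891366 to 60893430, minus strand, a single exon), which acts with Sox2 in neural progenitors, had 243, 262 and 297 TPM in D2 with naloxone, DAMGO and no ligand, against 81.5, 82.0 and 79.4 TPM in NSC. The D2 control library was the highest of the 6, and the spread among D2 libraries (SD 27.3 TPM) was wider than that among NSC libraries (SD 1.38 TPM). Sox3 had the largest rise of the group, with an edgeR log2 fold change of 1.71 (SE 0.07, adjusted p = 3.44e-10). Sox1 (chromosome 8, 12395295 to 12400126, plus strand, a single exon), a marker of committed neuroectoderm and of neural stem cells, had 47.9, 46.3 and 51.5 TPM in D2, against 22.1, 20.8 and 21.6 TPM in NSC. The Sox1 libraries of D2 did not overlap those of NSC either (edgeR log2 fold change 1.17, SE 0.06, adjusted p = 3.45e-09). Because Sox3 and Sox1 rose by more than Sox2, the TPM of Sox2 was 2.0 ± 0.153 times that of Sox3 in D2 and 4.23 ± 0.0809 times in NSC, and 11.0 ± 0.219 times that of Sox1 in D2 and 16.0 ± 0.977 times in NSC.

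The SoxC genes moved in opposite directions. Sox4 (chromosome 13, 28948919 to 28953713, minus strand, a single exon), which acts in neuronal and glial precursors, had 738, 696 and 802 TPM in D2 with naloxone, DAMGO and no ligand, against 186, 182 and 174 TPM in NSC. It was the most abundant of the 10 genes in D2, where it ranked 137 to 168 among all genes. Its edgeR log2 fold change of 2.03 (SE 0.05, adjusted p = 1.14e-11) was larger than that of 95.1% of tested genes. Sox11 (chromosome 12, 27334264 to 27342574, minus strand, a single exon), the partner of Sox4 in young neurons, had 30.0, 30.1 and 25.7 TPM in D2 against 60.45, 60.2 and 61.7 TPM in NSC. All 3 D2 libraries lay below all 3 NSC libraries, and the log2 fold change was -1.10 (SE 0.06; edgeR, adjusted p = 7.72e-09). The TPM of Sox4 was 26.3 ± 4.31 times that of Sox11 in D2 and 2.97 ± 0.133 times in NSC.

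The sequencing kit does not mark strand, and Sox4 shares exon sequence with the lincRNA Gm26735 on the opposite strand. Reads from the shared sequence therefore cannot be told apart. The expected counts of Sox4 were fractional in all 6 libraries, which means that reads were divided between features. Gm26735 was at 166, 113 and 69.4 CPM in D2 with naloxone, DAMGO and no ligand, against 12.1, 21.2 and 18.7 CPM in NSC. Sox4 and Gm26735 added together were 4.21 times as high in D2 as in NSC, against 4.10 times for Sox4 alone.

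Among SoxD genes Sox6 rose, while the fall of Sox5 was small and rested on the setting. Sox6 (chromosome 7, 115470872 to 116038796, minus strand), which restrains oligodendrocyte maturation in mice, had 107, 98.8 and 104 TPM in D2 with naloxone, DAMGO and no ligand, against 45.9, 45.8 and 49.3 TPM in NSC. The states did not overlap (edgeR log2 fold change 1.13, SE 0.05, adjusted p = 7.7e-10). Sox5 (chromosome 6, 143828425 to 144781977, minus strand), its closest relative, which is also known for the control of deep-layer cortical neurons, had 36.95, 39.2 and 43.2 TPM in D2, against 49.0, 57.4 and 62.35 TPM in NSC. In TPM the D2 libraries of Sox5 lay below those of NSC, but in TMM-scaled CPM the states overlapped: 101.4, 86.6 and 87.9 CPM in D2 against 101.2, 102.5 and 104 CPM in NSC, with D2 with naloxone just above NSC with naloxone. The edgeR log2 fold change of Sox5 was -0.16 (SE 0.06, adjusted p = 0.0353). The call was lost with DESeq2 (adjusted p = 0.122) and without the NSC control, the NSC library with DAMGO, the D2 control or the D2 library with DAMGO (edgeR, adjusted p = 0.172 to 0.203). With limma on log2(TPM + 1) the Sox5 change was -0.49 (adjusted p = 0.00069).

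TPM divides by the gene length, which the tables list for each library and which, in RSEM output, is a mean over transcripts weighted by their estimated abundance. Sox5 has 14 listed transcripts of 351 to 7243 bases, 7 of them annotated as protein coding. Its listed length was 6130, 4818 and 4478 bases in D2 with naloxone, DAMGO and no ligand, against 4536, 3937 and 3683 bases in NSC. In both states the naloxone library had the longest value, and the D2 control lay just below the NSC library with naloxone, so the states overlapped. Sox8 has 3 listed transcripts and a listed length of 2859 ± 49.9 bases in D2 and 2647 ± 70.0 bases in NSC, with no overlap. Of 9263 tested genes with more than 1 listed transcript, 23.0% had listed lengths that did not overlap between the states. The length of Sox6, with 5 transcripts, was 8103 to 8116 bases in D2 and 8069 to 8133 bases in NSC. Each of the other 7 members has 1 listed transcript and a fixed length.

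**Figure D2:**
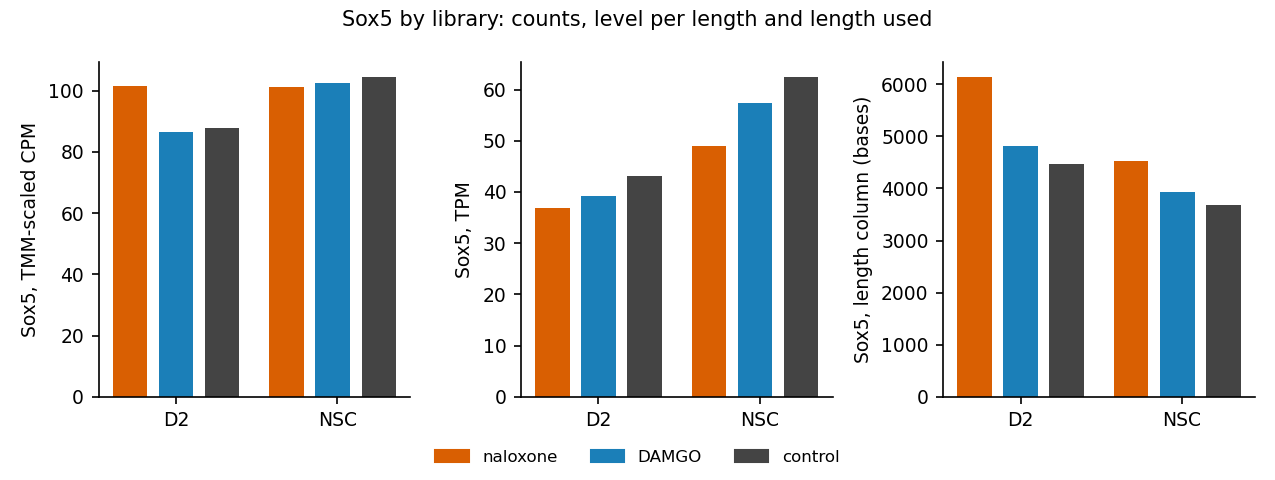
Sox5 in each library as TMM-scaled CPM (left), TPM (middle) and the listed gene length in bases (right), with D2 left of NSC and colours for the ligand. The CPM values of the states overlap, with 101.4 CPM in D2 and 101.2 CPM in NSC under naloxone, the TPM values do not, and the listed length is 6130 bases in D2 with naloxone and 3683 bases in the NSC control.

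All 3 SoxE genes rose, and Sox10 had the largest fold change of the 10 genes. Sox10 (chromosome 15, 79154908 to 79165240, minus strand, 4 exons), the oligodendrocyte lineage factor, had 206, 254 and 322 counts in D2 with naloxone, DAMGO and no ligand, against 8, 4 and 8 counts in NSC. In TPM this was 20.4, 23.4 and 25.9 in D2 against 0.48, 0.36 and 0.62 in NSC. The edgeR fit gave a log2 fold change of 5.50 (SE 0.18, adjusted p = 6.12e-11), larger than that of 99.6% of tested genes. Even so, Sox10 remained the least abundant of the 10 genes in D2, at 23.2 ± 2.77 TPM, next to Sox11 at 28.6 ± 2.52 TPM, and the ranges of these genes overlapped.

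Sox8 (chromosome 17, 25565892 to 25570686, minus strand), which overlaps Sox10 in function in oligodendrocytes, had 513, 527 and 548 TPM in D2 with naloxone, DAMGO and no ligand, against 192, 183 and 172 TPM in NSC. The states did not overlap (edgeR log2 fold change 1.64, SE 0.05, adjusted p = 3.44e-11). Sox8 shares exon sequence with the antisense gene 2810468N07Rik, and the sum of both was 3.16 times as high in D2 as in NSC, against 3.13 times for Sox8 alone. Unlike those of Sox4, the expected counts of Sox8 and 2810468N07Rik were whole numbers in every library. Sox9 (chromosome 11, 112782224 to 112787760, plus strand, 3 exons), the factor of the switch to gliogenesis and of astrocytes, had 229, 233 and 243 TPM in D2, against 105, 101 and 98.0 TPM in NSC. All D2 libraries were higher (edgeR log2 fold change 1.20, SE 0.05, adjusted p = 1e-09). The balance within the group changed, with Sox9 at 10.2 ± 0.935 times the TPM of Sox10 in D2 and 220 ± 61.9 times in NSC. The NSC value carries the counting error of 4 to 8 Sox10 counts a library. Sox9 was at 0.444 ± 0.00171 times the TPM of Sox8 in D2 and 0.558 ± 0.0113 times in NSC.

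**Figure D3:**
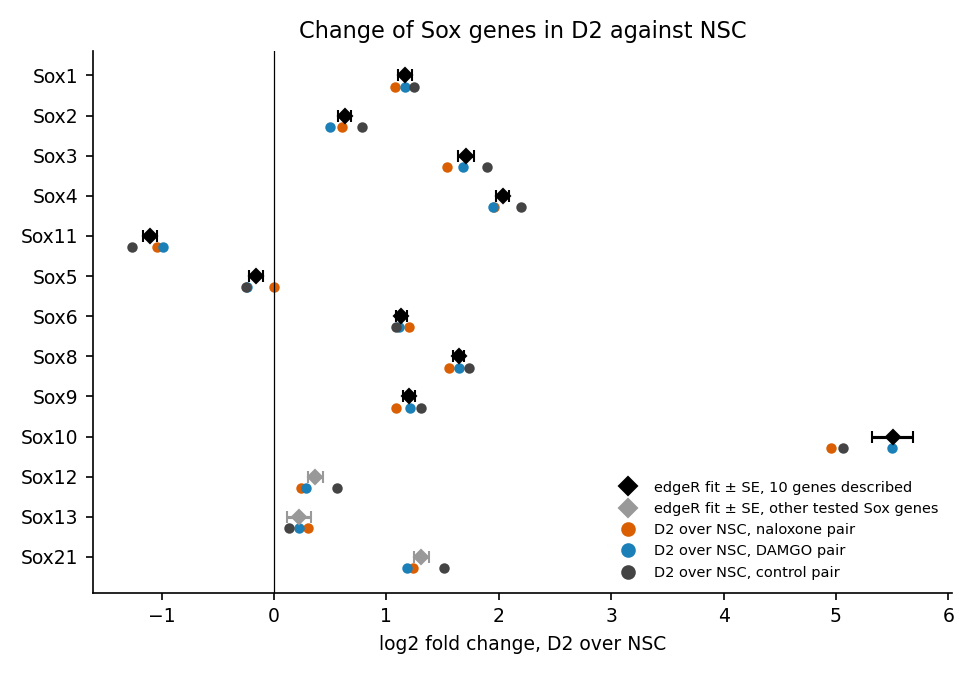
The log2 fold change of D2 over NSC for the 10 Sox genes (black diamonds) and the 3 other tested Sox genes (grey diamonds) from the edgeR fit, with its SE, and the log2 ratio of each ligand pair with a prior count of 2 (circles). Sox10 stands at 5.50 and Sox11 at -1.10, and the pairs of most genes lie close together.

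The order of levels differed between the states. In D2 the order by mean TPM was Sox4, Sox2, Sox8, Sox3, Sox9, Sox6, Sox1, Sox5, Sox11 and Sox10, and the ranges over 3 libraries overlapped between Sox2 and Sox8, between Sox3 and Sox9 and between Sox11 and Sox10. In NSC it was Sox2, Sox8, Sox4, Sox9, Sox3, Sox11, Sox5, Sox6, Sox1 and Sox10, with overlap between Sox8 and Sox4, between Sox11 and Sox5 and between Sox5 and Sox6. Of the summed TPM of the 10 genes, SoxB1 genes made up 33.2 ± 0.644% in D2 and 41.4 ± 0.562% in NSC, and SoxC genes 30.3 ± 0.616% in D2 and 22.5 ± 0.263% in NSC. SoxE genes made up 30.9 ± 0.96% in D2 and 26.5 ± 0.91% in NSC, and SoxD genes 5.61 ± 0.171% in D2 and 9.62 ± 0.937% in NSC. SoxB1 had the highest share in every library of both states, by a smaller margin in D2. Sox4 alone made up 29.2 ± 0.687% of the sum in D2 and 16.8 ± 0.32% in NSC, and Sox2 made up 20.9 ± 0.533% in D2 and 31.9 ± 0.634% in NSC.

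**Figure D4:**
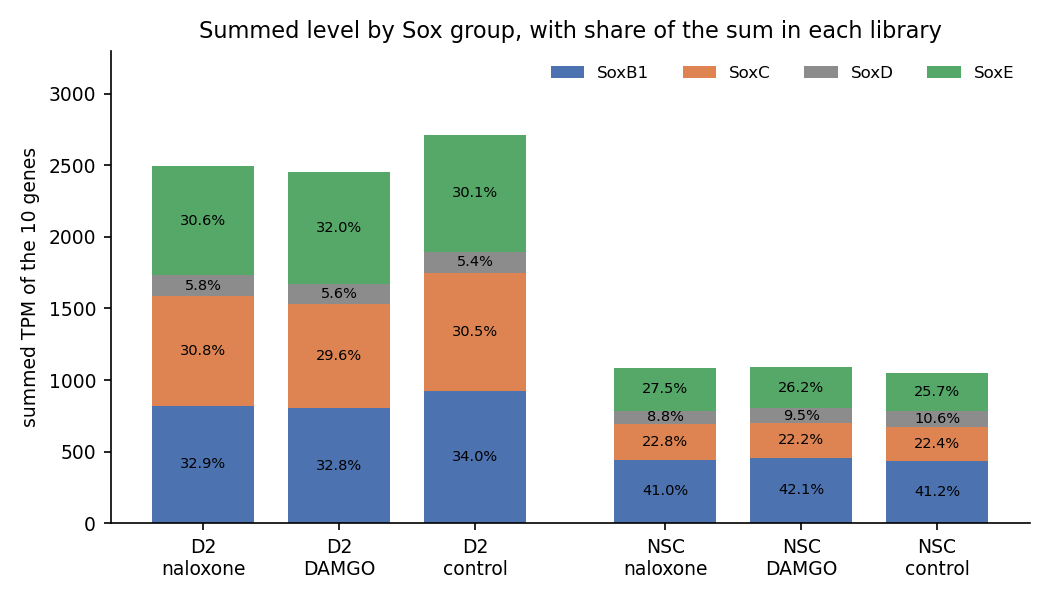
Summed TPM of the 10 Sox genes in each library, stacked by group, with D2 libraries left of NSC libraries and the share of each group in percent printed in the bars. The sums are 2453 to 2714 TPM in D2 and 1052 to 1087 TPM in NSC, and the SoxB1 share is 32.8 to 34.0% in D2 and 41.0 to 42.1% in NSC.

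No Sox gene passed the test for a ligand over both states. For naloxone against control 0 of the 10 genes passed and 1 had an unadjusted p under 0.05, while 0.00757% of all tested genes were called higher and 0.00757% lower (edgeR, adjusted p = 1.00 for each of the 10 genes). For DAMGO against control 0 passed and 0 had an unadjusted p under 0.05, with 0.00757% of all tested genes called in each direction, and both ligand contrasts use the same controls. For naloxone against DAMGO 0 passed and 0 had an unadjusted p under 0.05, with 0.00757% of all tested genes called higher and 0.0227% lower. Of all 13216 tested genes, 293 had an unadjusted p under 0.05 for naloxone, 317 for DAMGO and 280 for naloxone against DAMGO (edgeR). DESeq2 and limma on log2(TPM + 1) also called 0 of the 10 genes in each of these contrasts. The naloxone log2 fold change lay between -0.37 for Sox10, with a 95% interval of -0.74 to -0.01, and 0.07 for Sox5, with an interval of -0.09 to 0.24. The DAMGO log2 fold change lay between -0.17 for Sox10 (-0.52 to 0.19) and 0.09 for Sox11 (-0.08 to 0.25). For Sox2 the interval was -0.21 to 0.09 with either ligand.

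Within D2 the libraries with a ligand had lower values of several Sox genes than the control. These are comparisons of single libraries, with 95% binomial intervals of the count ratio that cover counting error only. Both ligands are set against the same D2 control library, so their ratios are not independent of each other. With naloxone in D2, 7 of the 10 genes had an interval below 1 and 2 above 1, where 10.3% and 10.7% of all tested genes did so. Intervals are narrow for genes with many counts, and 9 of the 10 genes had a mean of at least 500 counts. Among the 5172 tested genes of that depth, 17.5% were lower and 16.2% higher with naloxone in D2. Several of the 10 genes lie far above that depth, such as Sox4 with 13352 counts in D2 with naloxone. These shares are not matched to their depth. Sox3 had a ratio of 0.802 (interval 0.756 to 0.851) and Sox10 0.77 (0.644 to 0.92), whereas Sox5 was at 1.15 (1.05 to 1.27) and Sox11 at 1.14 (1.05 to 1.25). With DAMGO in D2, 6 genes had an interval below 1 and 1, Sox11, above 1 (8.26% and 8.48% of all tested genes, and 14.2% and 11.0% of those with at least 500 counts). Sox2 was at 0.872 (0.84 to 0.905), Sox4 at 0.874 (0.854 to 0.893) and Sox11 at 1.18 (1.08 to 1.29). The naloxone ratio of Sox4 in D2 was 0.901 (0.881 to 0.922) and became 0.958 when the counts of Gm26735 were added. The naloxone ratio of Sox5 turned round in TPM, where D2 had 36.95 TPM with naloxone against 43.2 TPM without ligand.

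Fewer intervals excluded 1 in NSC: with naloxone these were 9 genes in D2 and 4 in NSC, and with DAMGO 7 in D2 and 2 in NSC. With naloxone in NSC 3 genes, Sox4, Sox8 and Sox9, had an interval above 1 and Sox6 had one below 1 (4.0% and 4.91% of all tested genes, and 4.87% and 7.25% of those with at least 500 counts). The highest of these 4 ratios was 1.07 for Sox9 (1.01 to 1.14), and Sox6 stood at 0.929 (0.874 to 0.987). With DAMGO in NSC, Sox2 lay above 1 at 1.06 (1.02 to 1.11) and Sox6 below at 0.932 (0.871 to 0.997), against 3.59% and 4.19% of all tested genes, and 4.56% and 5.70% of those with at least 500 counts. Sox10 in NSC, at 4 to 8 counts, had ratios of 0.783 with naloxone (0.256 to 2.39) and 0.584 with DAMGO (0.129 to 2.18), with the widest intervals of the 10 genes. Between naloxone and DAMGO, 3 genes in D2 had an interval above 1 and 2 below (9.56% and 9.29% of all tested genes, 16.4% and 14.4% of the deeper ones). In NSC 0 did (5.26% and 5.55% of all tested genes, 7.56% and 8.55% of the deeper ones). Sox5 was at 1.17 (1.06 to 1.29), and Sox3 was at 0.903 (0.848 to 0.961) with naloxone over DAMGO in D2.

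**Figure D5:**
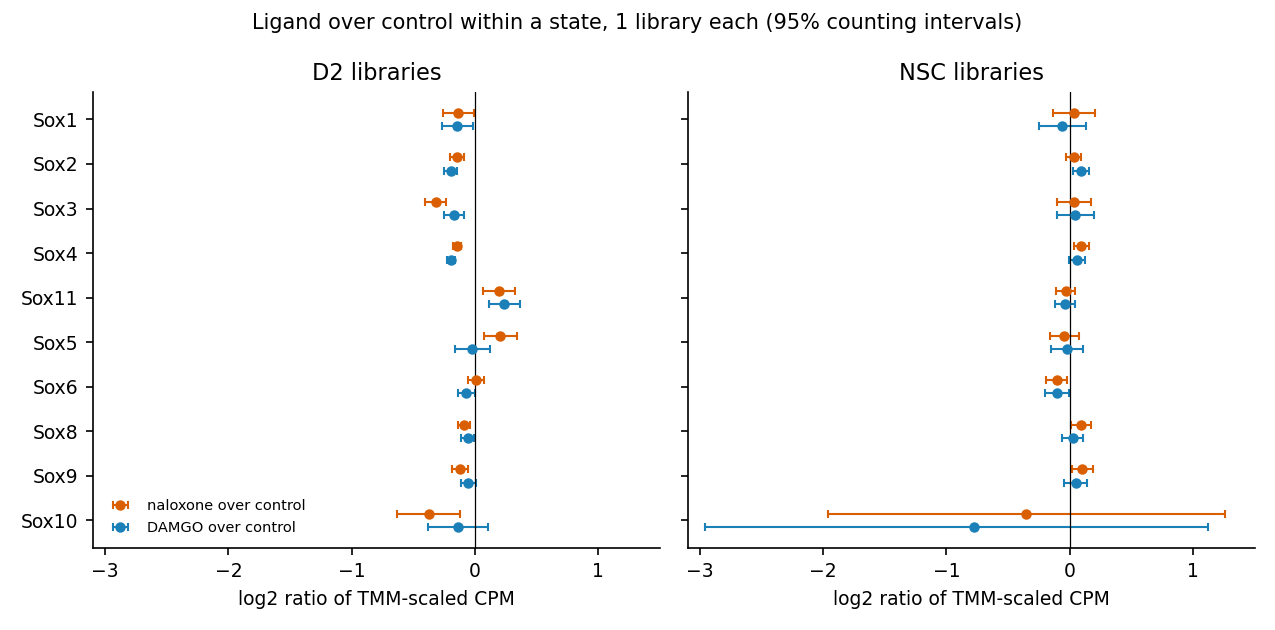
Log2 ratio of TMM-scaled CPM with naloxone (orange) or DAMGO (blue) over the control of the same state, for D2 (left) and NSC (right), with 95% counting intervals of 1 library against 1. In D2 most genes lie below 0 and Sox11 above it, and the wide intervals of Sox10 in NSC rest on 4 to 8 counts.

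Whether the change between states differed between ligand and control libraries was tested with the naloxone and DAMGO libraries of a state taken as samples of one group. None of the 10 genes passed (edgeR, lowest adjusted p = 0.508), while 0.0757% of all tested genes were called higher and 0.0908% lower, and DESeq2 and limma also called 0 of the 10. At an unadjusted p under 0.05 there were 4 genes, Sox2, Sox3, Sox4 and Sox11, and 786 of the 13216 tested genes. The Sox4 log2 rise was smaller with a ligand by a difference of -0.25 (SE 0.08, edgeR, unadjusted p = 0.00742, adjusted p = 0.508). The fit took Sox4 without Gm26735, which shares exon sequence with it. In D2 Sox4 was at 0.901 times the control with naloxone and 0.874 times with DAMGO. With Gm26735 added these ratios were 0.958 and 0.902. In NSC they were 1.07 and 1.04 for Sox4 alone, and 1.05 and 1.04 with Gm26735 added. The interaction was not tested on the summed counts. Some markers of fibroblasts and pericytes also differed between the ligand and control libraries. The 6 genes of that list summed to 10.04 CPM in D2 with naloxone, 10.1 CPM in D2 with DAMGO and 20.1 CPM in the D2 control. In NSC the order was another, with 10.1 CPM with naloxone, 0.551 CPM with DAMGO and 1.51 CPM in the control. Of its 4 tested genes 1 rose in D2, the pericyte receptor gene Pdgfrb (edgeR log2 fold change 6.32, SE 0.41), and 3 did not pass. Pdgfrb made up most of the sum in the D2 ligand libraries and was at 8.62, 8.03 and 7.65 CPM in D2 with naloxone, DAMGO and no ligand, so the lower sums with a ligand came from the other genes, such as Col1a1 at 0.827, 0.679 and 4.81 CPM. The part of these cells in the Sox values was not tested.

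Other Sox genes were few. Of the 9 remaining family members in the tables, 3 were tested, 2 rose and 1 did not pass, where 40.0% of all tested genes rose. Sox21, the SoxB2 factor known from chick embryos to counteract SoxB1 proteins, was at 185 ± 16.5 TPM in D2 and 74.1 ± 2.54 TPM in NSC (edgeR log2 fold change 1.31, SE 0.07, adjusted p = 2.48e-09). Its expected counts were fractional. Sox12, the third SoxC gene, rose by less (74.5 ± 6.83 TPM in D2 and 57.4 ± 1.6 TPM in NSC, log2 fold change 0.37, SE 0.07). Sox13, the third SoxD gene, was at 14.2 ± 1.96 TPM in D2 and 11.6 ± 0.125 TPM in NSC and did not pass (edgeR, adjusted p = 0.0747). Sox14 and Sox17 had 0 counts in all libraries, and Sox7, Sox15, Sox18 and Sox30 had at most 5 counts in any library after rounding.

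Of 6 tested POU and PAX factors that bind DNA beside Sox proteins, 3 rose and 3 fell (median log2 fold change -0.10). Pax6, the partner of Sox2 in eye and forebrain, rose (0.57, SE 0.07), and Pou3f1 (-2.35, SE 0.12), Pou2f1 (-0.45, SE 0.07) and Pou3f2, known as Brn2 (-0.33, SE 0.08), fell. In the list of progenitor genes linked to SoxB1 factors 7 of 10 rose and 3 fell (median 0.67). Hes5, a Notch target, rose (4.01, SE 0.07) and so did Socs3, a feedback inhibitor of cytokine signals (1.45, SE 0.17), whereas the cyclin Ccnd1 (-4.18, SE 0.05) and Nes, whose neural enhancer is bound by Sox and POU factors (-2.18, SE 0.04), fell. Nes was at 147 ± 4.22 TPM in D2 and 668 ± 6.18 TPM in NSC while the 3 SoxB1 genes rose. Each list was chosen with earlier results of these data known, and 40.0% and 39.8% of all tested genes rose and fell.

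In the list linked to Sox4 and Sox11 in young neurons, 3 of 5 tested genes rose and 1 fell (median 0.32). The shares over all tested genes were 40.0% and 39.8%. Tubb3, a neuronal tubulin, was at 126 ± 3.8 TPM in D2 and 14.3 ± 1.72 TPM in NSC (log2 fold change 3.13, SE 0.08), and the neuroblast gene Dcx was at 20.1 ± 1.53 TPM in D2 and 2.69 ± 0.353 TPM in NSC (2.88, SE 0.08). Tead2 rose by 0.32 (SE 0.06) and Prox1 fell by 0.23 (SE 0.08) on the log2 scale. Of 7 genes linked to Sox9 and NFIA in early glia, 5 rose and 1 fell (median 1.38), led by Mmd2 (5.77, SE 0.07), Apcdd1 (3.26, SE 0.15), the glutamate transporter Slc1a3 (2.11, SE 0.04) and the receptor Fgfr3 (1.38, SE 0.06). The gene that fell was Nfib (-1.02), also named after its values were seen.

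The list linked to Sox10 held 15 genes of the oligodendrocyte lineage, of which 10 were tested, 8 rose and 1 fell (median 1.39). Over all tested genes 40.0% rose and 39.8% fell, and this list too was chosen with earlier results of these data known. Pdgfra, the receptor of oligodendrocyte progenitors, was at 126 ± 10.1 TPM in D2 and 4.36 ± 0.385 TPM in NSC (log2 fold change 4.83, SE 0.08). S100b (2.95, SE 0.20) and the myelin enzyme gene Cnp (2.76, SE 0.06) rose, and Mbp, the myelin basic protein gene, rose at a low level (2.65 ± 0.234 TPM in D2 and 0.42 ± 0.3 TPM in NSC). The gene that fell was Cspg4 (-0.54), named after its values were seen. The other 5 genes were not tested, and of these Erbb3, Mag and Mog had at most 9 counts in any library.

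SoxE genes are also used by cartilage, neural crest and Schwann cells, whose markers were low. The 8 cartilage genes summed to 6.73 to 10.2 CPM in D2 and 2.32 to 3.11 CPM in NSC, and Matn1 had 0 counts in all libraries, while Col2a1 had 2 to 7 counts in D2 and 1 to 4 in NSC. Most of the D2 sum came from Col11a2, the only one tested, which rose (4.24 ± 0.722 TPM in D2 and 0.85 ± 0.605 TPM in NSC, edgeR log2 fold change 2.47, SE 0.27, adjusted p = 3.9e-06). The 6 neural crest and Schwann cell markers summed to 2.26 to 3.18 CPM in D2 and 7.83 to 7.99 CPM in NSC. The 5 endothelial markers summed to 3.05 to 4.05 CPM in D2 and 3.67 to 4.76 CPM in NSC. The 5 pluripotent cell markers summed to 1.94 to 4.28 CPM in D2 and 14.9 to 16.7 CPM in NSC. Most of the NSC sum came from Esrrb, and Pou5f1 had 19 counts in D2 with naloxone and 0 in the other D2 libraries, with Zfp42 and Dppa4 at 0 in all libraries. The 5 microglia markers summed to 0.113 to 0.354 CPM in D2 and 1.32 to 2.03 CPM in NSC.

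Genes with the pattern most like that of a member were sought among 11038 other genes of at least 5 CPM, by Pearson's r of log2 CPM over the 6 libraries. For Sox2 the nearest were Zxdc, Marcks and Tex2, and 157 genes had a likeness above 0.99. For Sox5 they were Tfdp2, Dcun1d4 and Zfp809, and 2 genes were above 0.99. Each of the other 8 members had 1142 to 1692 genes above 0.99. The 6 libraries form only 2 states, which all these values share, so these values are a description and carry no p.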

How the data were processed

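The authors deposited, for each of 6 libraries, a table of expected counts, TPM, FPKM and gene lengths. Bowtie, RSEM and the build mm10 are named, per the submitters' processing notes. Versions, annotation and read filters were not given in the sources used here. Per the labels' protocols, Trizol served for RNA extraction and a TruSeq RNA kit for the libraries, which does not mark strand. The expected counts the authors deposited are estimates that divide shared reads. Their TPM and FPKM values are deposited levels per length, of which FPKM served only as an alternative. Symbols, coordinates and transcripts came from GENCODE M21 on mm10 (28756 of 29267 identifiers matched). It differs in places from the annotation behind the tables: the single Sox2 transcript is 2457 bases long in the tables and 2057 in M21.

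Expected counts were rounded, and the tests took genes whose mean reached 10 counts (13216 genes, at least 99.8% of the counts of each library). Counts were fitted with edgeR 4.0.16 in R 4.3.3 (TMM, glmQLFit, glmQLFTest), with additive terms for state and ligand and 2 residual degrees of freedom, adjusted by Benjamini-Hochberg at a threshold of 0.05. Ligand effects that differ between the states enter its residual. A second model had the interaction of state with either ligand. DESeq2 1.42.0, limma 3.58.1, other scalings, filters and libraries left out were alternatives. Ratios of 2 libraries carry exact binomial 95% intervals. Totals were 8417074 to 13561237 counts, so 3 counts are 0.222 to 0.354 TMM-scaled CPM. The scripts were tested on simulated data. All 10 members are named. From each list up to 4 genes were named, those past the threshold with the largest change and at least 1 CPM. Likeness took the 3 highest correlations. Members and lists were chosen with earlier results of these data known, and the depth of 500 counts was chosen after the values were seen. Marker genes given with their counts, such as Matn1, Col2a1, Col1a1 and Pou5f1, were named after their values were seen. Some genes of the lists are not reported here.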

Additional observations from a re-analysis of the deposited data

Results flagged for a closer look

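Within each state, ligand ratios of 4 Sox genes pointed in opposite directions in D2 and NSC, with counting intervals that excluded 1 in both states. Each ratio compares 1 library with 1, both states are set against their own control, and the difference between the states was not tested for a single ligand. The intervals cover counting error only and are narrow for genes with many counts. The share of all tested genes that met the same rule was not worked out, so whether these 4 genes stand out is not known. With naloxone over control, the log2 ratio of Sox4 was -0.15 in D2 and 0.094 in NSC, that of Sox8 was -0.088 in D2 and 0.090 in NSC, and that of Sox9 was -0.12 in D2 and 0.10 in NSC. Gm26735 shares exon sequence with Sox4. When its counts were added, the naloxone ratio of Sox4 was 0.958 in D2 and 1.05 in NSC, against 0.901 in D2 and 1.07 in NSC for Sox4 alone. With DAMGO over control, the log2 ratio of Sox2 was -0.20 in D2 and 0.090 in NSC. Against the naloxone and DAMGO libraries together, the interaction with state was not passed by any of these 4 genes (edgeR, adjusted p = 0.508 to 1.00).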

How the results depend on the processing

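The 8 Sox genes that rose in D2 did so under every alternative run for the comparison of states (DESeq2, RLE size factors, no filter on low counts, limma on log2(TPM + 1), no ligand term, and each library left out). The number that fell was 2, and 1 with DESeq2; it ranged from 1 to 2 with a library left out, Sox5 being the gene that was lost. No Sox gene was called for naloxone, DAMGO or their difference under any alternative run. For the interaction of state with either ligand the number called lower ranged from 0 to 1 with a library left out. The gene called was Sox4 without the D2 library with naloxone, at a log2 difference of -0.27 against -0.25 with all libraries. Without the D2 library with DAMGO it was Sox3, at -0.35 against -0.28 with all libraries. With all libraries neither passed (edgeR, adjusted p = 0.508 for Sox4 and 0.789 for Sox3). Each of these fits leaves 1 D2 library with a ligand. More of all tested genes were called in both fits than with all libraries. Whether Sox4 and Sox3 stand out among them was not tested. The counts of Gm26735, which shares exon sequence with Sox4, were not added in these fits. The interaction fit could not be made without either control. In TPM the Sox5 log2 ratio in D2 changed sign, to -0.22 for naloxone over control and -0.086 for naloxone over DAMGO, and the listed gene length differs between these libraries. The ligand term of the fit pairs D2 with NSC libraries of the same ligand; without it 8 Sox genes rose and 2 fell as well. The labels give no replicate numbers, so no replicate block was fitted. Sox10 in NSC, at 4 to 8 counts, is the value that depth limits most.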
